A study of Saccharomyces cerevisiae with 6 samples.

Results

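The genes described here are the 33 nuclear genes for subunits of the yeast respiratory chain and the mitochondrial ATP synthase, out of 6696 open reading frames counted. They were listed by systematic name, as parts of these complexes and by no threshold on a measured value, though the set was proposed with earlier results of these data known: SDH1 to SDH4 of succinate dehydrogenase (complex II), the NADH dehydrogenase gene NDI1, 9 genes of the bc1 complex, 7 of cytochrome oxidase and 12 of the ATP synthase. All 33 were found in the counts, all 33 passed the filter on low counts, and each carries the named symbol in the reference annotation. Total RNA of Saccharomyces cerevisiae, depleted of ribosomal RNA, was sequenced from strain BY4741 and from BY4741 with CYC8 replaced by the kanMX4 marker. Cyc8 works with Tup1 as a general corepressor of transcription. Cells were labelled as grown for 3 h in rich medium (2% peptone, 1% yeast extract) with either 2% glucose or 2% mannose. The 6 libraries form 4 groups: 2 libraries of wild type and 2 of the cyc8 deletion come from glucose, and 1 of each strain from mannose.

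All groups share the BY4741 background, whose HAP1 gene, for a heme-responsive activator of respiratory genes, is known to carry a transposon insertion. The labels do not say whether the glucose replicates are separate cultures, so the p-values measure the spread between these libraries, which may be technical. With 1 library per strain in mannose, every test that involves mannose takes its spread from the glucose replicates. Values are shares of each library, so less RNA per cell and fewer cells that express a gene cannot be told apart. Libraries held 26195734 to 44084216 counts. CYC8 stood at 199.7 and 207 CPM (counts scaled by library total and TMM factor) in wild type in glucose and 197 CPM in mannose, against 2.17, 2.92 and 7.92 CPM in the libraries labelled as the deletion. STE2, which marks mating type a, stood at 163 to 261 CPM in wild type and 16.4 to 50.8 CPM in the deletion, and STE3, which marks mating type alpha, at 0.264 to 3.11 CPM. LEU2, MET17 and URA3, which BY4741 lacks, had 0 counts in all 6 libraries. HIS3, also an auxotrophic marker of BY4741, had 583 to 2151 counts, and the reason was not tested. The deletion in mannose had the fewest counts and the lowest TMM factor (0.868). Changes in both mannose libraries followed coding length and GC content across the members, as given beside the results below. The genotype change in glucose also followed coding length.

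In the respiratory chain, electrons from NADH and succinate enter through Ndi1 and complex II, pass by way of ubiquinone to the bc1 complex and from there by cytochrome c to cytochrome oxidase, which reduces oxygen. The bc1 complex and the oxidase pump protons across the inner mitochondrial membrane, and the ATP synthase uses the gradient to make ATP. Budding yeast ferments in high glucose and keeps many respiratory genes low there. When glucose is scarce, the Hap2, Hap3, Hap4 and Hap5 complex, of which Hap4 is the regulated subunit, activates many of them through CCAAT boxes.

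The sequences upstream of these genes are shown for their CCAAT boxes. In the 500 bases before the start codon, searched on both strands in the R64 reference (the sacCer3 build), 15 of the 33 genes (45.5%) held the letters ACCAATNA, and 8.6% of 6000 nuclear coding genes did. The shorter CCAAT, which is contained in ACCAATNA, was held by 93.9% of the 33 and 62.4% of all. The Mig1-type letters CCCCGC were held by 18.2% and 5.77%, CCCCAC by 6.06% and 8.52%, and the Rox1-type core ATTGTT by 57.6% and 48.9%. The Hap1 motif, a CGG triplet, 3 free bases, TA, 1 free base and a further CGG, was found in 1 of the 33 (QCR6) and in 0.35% of all. Below are 8 of the matches, with at least 1 from NDI1 and each complex, to show the box beside its neighbouring bases. Each runs 5′ to 3′ on the strand of its gene with 10 bases on either side, and capitals mark the match to ACCAATNA, which in COX6 lies on the opposite strand.

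SDH1, chrXI:171430-171457, minus strand: gcgggggtggACCAATCAcagcgcagaa
NDI1, chrXIII:30018-30045, minus strand: attcattcggACCAATCAtatgaaggca
RIP1, chrV:107002-107029, plus strand: tccataacggACCAATCAgcgttttgcg
COX6, chrVIII:209478-209505, plus strand: aaaagggaccTAATTGGTccggtcaaag
COX13, chrVII:144585-144612, plus strand: tttttttcccACCAATGAgaggcggtac
ATP4, chrXVI:408917-408944, minus strand: tcaatattgaACCAATCAcgacgctttt
ATP15, chrXVI:29935-29962, plus strand: ttttatacgaACCAATGAaatttgatcc
ATP17, chrIV:1228371-1228398, plus strand: tacggagagaACCAATCAtatcgaagga

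In SDH1 the match ends 311 bases before the start codon, and the bases just before it hold the opposite strand of CCCCGC. In the other 7 genes shown the match ends 127 to 241 bases before the start codon. A match describes letters in this window and does not show that a factor binds there. The 15 genes with ACCAATNA and the 18 without it had median log2 changes of 0.62 and 0.66 by genotype in glucose, 0.67 and 0.84 with mannose in wild type and 0.99 and 1.57 with mannose in the deletion, so the genes with the letters had no higher a median in any of these. The 33 genes lie on 12 chromosomes. QCR9 and QCR10 have 2 coding exons and the others 1, and no member overlaps another reading frame of the reference. The closest coding match to any member was SDH9 (YJL045W), a paralog of SDH1 with 77.0% identity over 93.3% of SDH1. How reads shared between such paralogs were counted is not known.

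**Figure D1:**
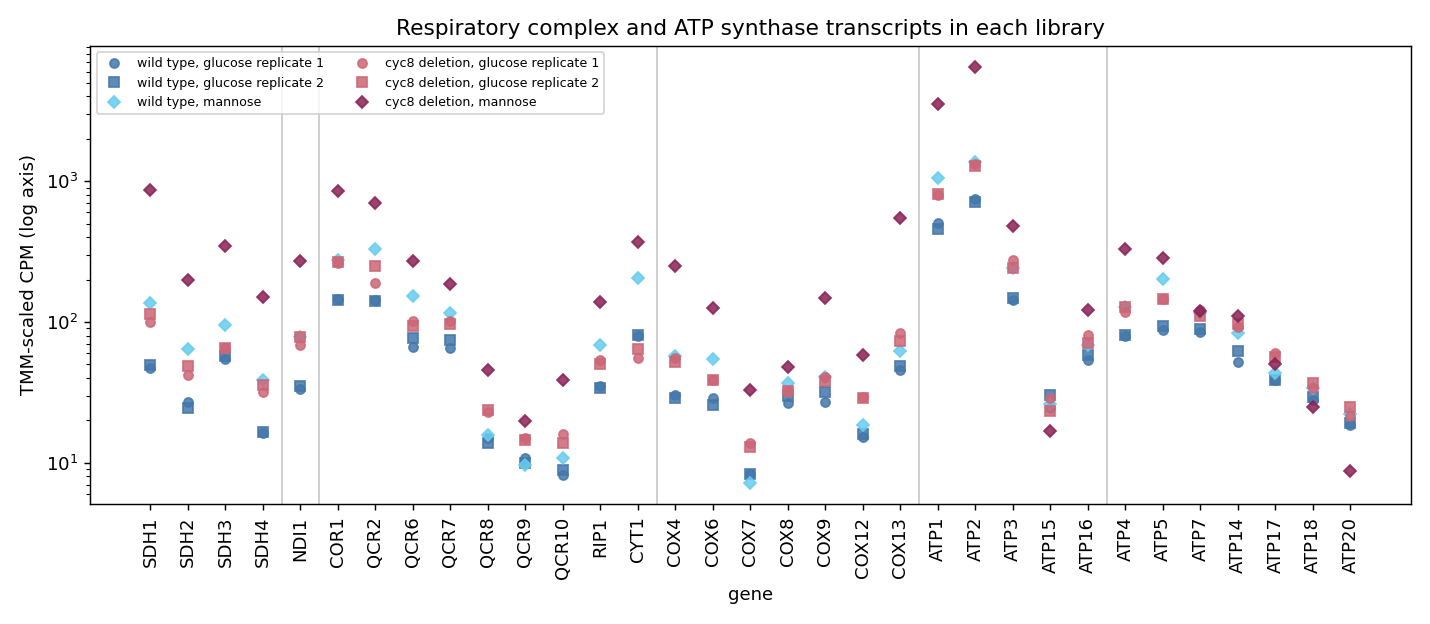
TMM-scaled CPM (log axis) of the 33 genes in each of the 6 libraries, with grey lines between complex II, NDI1, the bc1 complex, cytochrome oxidase, the F1 part of the ATP synthase and its stalk and membrane part. The deletion in mannose (dark diamonds) is the highest library for 28 genes and lies below the others for ATP15, ATP18 and ATP20.

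Together the 33 genes took 0.276% and 0.283% of all counts in wild type in glucose, 0.521% in wild type in mannose, 0.480% and 0.489% in the deletion in glucose and 1.49% in the deletion in mannose. The catalytic F1 genes ATP1 and ATP2 alone held 42.1% to 46.8% of the summed CPM of the 33 in the first 5 libraries and 58.2% in the deletion in mannose. Of the 33 genes, 28 were highest in the deletion in mannose, 2 in each deletion glucose library and 1 (ATP15) in wild-type glucose replicate 2. Lowest was wild-type glucose replicate 1 for 18 genes and replicate 2 for 9, the deletion in mannose for ATP15, ATP18 and ATP20, wild type in mannose for QCR9 and COX7, and a deletion glucose library for CYT1. Such rankings were not made for all open reading frames, so no share over all stands beside these counts.

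The levels of subunit genes within a complex differed several-fold when set per kilobase of coding length. In wild type in glucose the median per-length level (CPM per kilobase) was lowest in complex II (31.6 and 30.2), followed by cytochrome oxidase (64.3 and 63.2), the bc1 complex (85.7 and 87.1) and the ATP synthase (138 and 159), with NDI1 at 21.6 and 22.9. In the deletion in mannose the ATP synthase median stood at 274 CPM per kilobase, the lowest of the 4 complexes, beside 279 for the oxidase, 360.5 for complex II and 398 for the bc1 complex. Within the ATP synthase the highest gene, ATP2, stood 9.08-fold and 8.43-fold above its lowest, ATP20, in wild type in glucose, 13.8-fold in wild type in mannose, 14.0-fold and 11.7-fold in the deletion in glucose, and 169.7-fold in the deletion in mannose. The last ratio is of levels not adjusted for GC content or length, and with those trends removed the change of ATP20 with mannose in the deletion went from -1.42 to -0.16 and that of ATP2 from 2.32 to 1.96. Within complex II the same ratio, of SDH3 to the lowest gene, was 3.75 and 3.76 in wild type in glucose and 1.85 to 2.34 in the other groups.

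The first comparison asks how these transcripts differ without CYC8 in glucose, 2 libraries against 2. Nearly the whole set was higher in the deletion, by modest amounts. Of the 33 genes 31 rose and CYT1 alone fell. Calls were made with the quasi-likelihood F test of edgeR where p, adjusted by Benjamini-Hochberg over 6146 open reading frames, was under 0.05. Of all open reading frames tested, 30.1% were called higher and 37.8% lower. The median log2 change of the 33 was 0.64, and that of all open reading frames was -0.08. Rises of at least 2-fold were those of SDH1, SDH4 and NDI1, 3 in all. Of all 6146 open reading frames tested, 778 were called higher by at least 2-fold. With a BCV (biological coefficient of variation) set to 0.2, larger than the fitted 5.54%, 11 members rose and 0 fell. Of all open reading frames, 953 were then called higher and 538 lower. Across the 33 genes the genotype change had a Spearman's rho of 0.46 with coding length and 0.21 with GC content. With smooth trends on both removed these were 0.42 and 0.11. Over 5828 nuclear open reading frames rho was 0.02 with length and 0.15 with GC content.

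All 4 genes of complex II, which oxidises succinate in the TCA cycle, rose. SDH1 (YKL148C, chromosome XI, 169207 to 171129, minus strand), for the flavoprotein subunit, stood at 46.9 and 49.2 CPM in wild type and at 99.9 and 113 CPM in the deletion. The groups did not overlap, and the log2 change was 1.15 ± 0.08 (SE; adjusted p = 2.70e-24, edgeR). SDH4, for a membrane anchor, rose by 1.05 ± 0.09 and SDH2, for the iron-sulfur subunit, by 0.83 ± 0.08. SDH3, for the other anchor, went from 54.5 and 57.4 to 65.0 and 64.9 CPM, a log2 change of 0.21 ± 0.08 (adjusted p = 0.00927, edgeR). This call for SDH3 was lost with upper-quartile factors (adjusted p = 0.0957) and without wild-type glucose replicate 1 or 2 (adjusted p = 0.172 and 0.0522, edgeR). NDI1 (YML120C, chromosome XIII, 28266 to 29807, minus strand), for the single-subunit internal NADH dehydrogenase that stands in for complex I in this yeast, went from 33.2 and 35.3 to 68.3 and 78.5 CPM, a change of 1.10 ± 0.08.

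In the bc1 complex 8 of 9 genes rose, with a median log2 change of 0.60 over the 9. COR1, for a core protein, rose the most (0.88 ± 0.08), from 146 and 143 to 264 and 267 CPM. QCR10, for a small subunit, rose by 0.79 ± 0.11. The exception was CYT1 (YOR065W, chromosome XV, 447439 to 448368, plus strand), for the heme-bearing cytochrome c1. It stood at 79.7 and 81.0 CPM in wild type and at 55.3 and 64.4 CPM in the deletion, with no overlap, a log2 change of -0.42 ± 0.08 (adjusted p = 8.54e-07, edgeR). The call for CYT1 was made under each alternative except a BCV of 0.2, and its change was -0.25 without deletion glucose replicate 1. The Rieske iron-sulfur protein gene RIP1, which like CYT1 encodes a catalytic subunit, rose by 0.60 ± 0.08.

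All 7 oxidase genes rose, with a median of 0.67. COX12 (0.90 ± 0.09) and COX4 (0.86 ± 0.08), both needed for assembly of an active enzyme, rose the most. COX8 rose by 0.19 ± 0.09 (adjusted p = 0.0412, edgeR), and this call was lost with DESeq2 (adjusted p = 0.0530), with upper-quartile factors (0.222) and without wild-type glucose replicate 1 or 2 (0.444 and 0.0559). In the ATP synthase 11 of 12 genes rose, with a median of 0.60. ATP2 (YJR121W, chromosome X, 647607 to 649142, plus strand), for the catalytic beta subunit, went from 744 and 712 to 1315 and 1289 CPM, a change of 0.84 ± 0.08. ATP3, for the gamma subunit of the central shaft, rose by 0.83 ± 0.08, and in the stalk ATP14 (0.72 ± 0.08) and ATP5 (0.68 ± 0.07) rose the most. ATP18 (0.31 ± 0.09) and ATP20 (0.30 ± 0.10) were not called without wild-type glucose replicate 1, and ATP20 stood at 0.47 without deletion glucose replicate 1. ATP15 (YPL271W), for the small epsilon subunit, stood at 24.6 and 30.1 CPM in wild type and 28.7 and 23.3 CPM in the deletion. Its groups overlapped and it was not called (-0.08 ± 0.09, adjusted p = 0.460, edgeR).

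**Figure D2:**
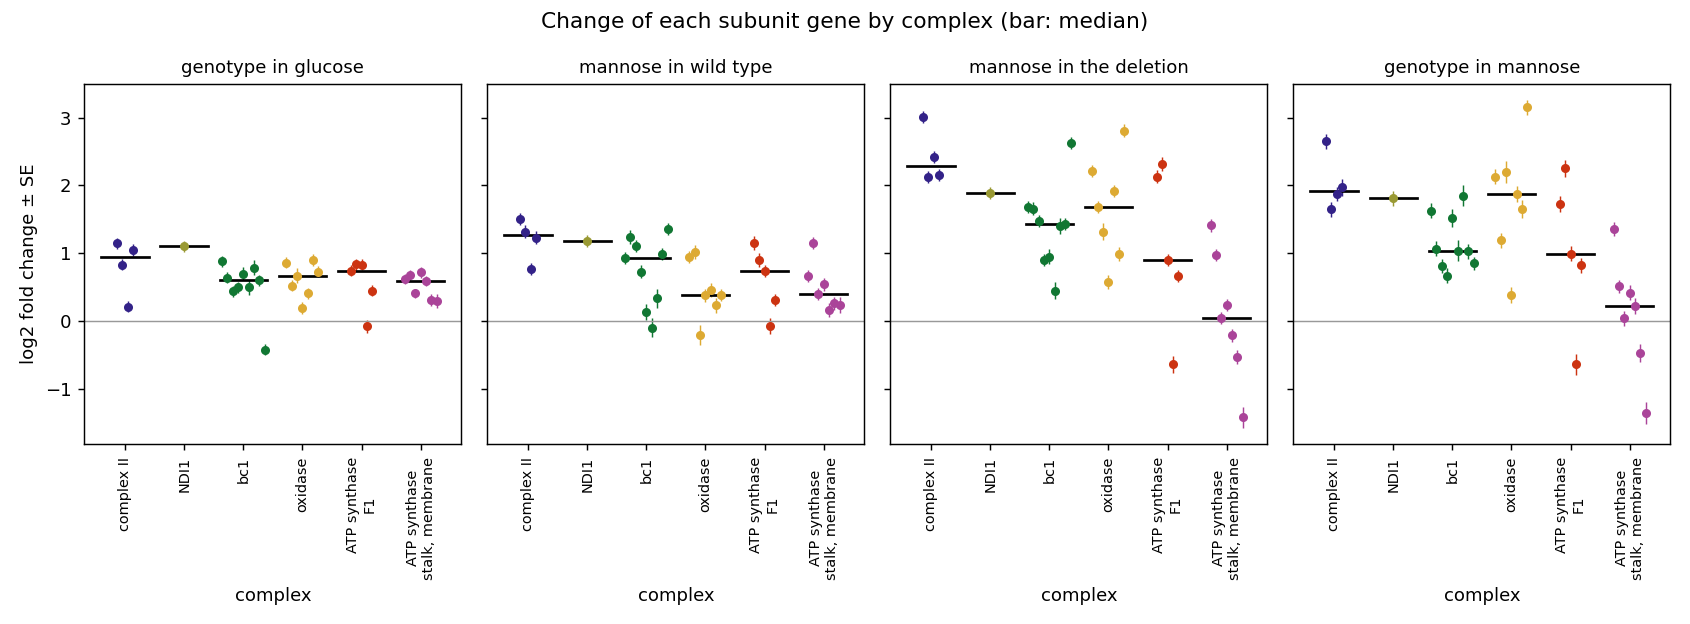
Log2 fold change ± SE of each gene (points) in 4 comparisons, by complex, with a black bar at the median. For mannose in the deletion the medians run from 2.29 in complex II to 0.04 in the stalk and membrane part of the ATP synthase.

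The second comparison asks what mannose did in wild type, 1 library against 2. Again the set moved upward, and more in the large subunits than in the small ones. Of the 33 genes 26 rose and none fell, while 20.5% of all open reading frames were called higher and 16.9% lower. The median of the 33 was 0.73 and that of all open reading frames 0.02. Without each glucose replicate in turn the median of the 33 was 0.66 to 0.77. At a BCV of 0.2, 8 of the 33 rose, and of all open reading frames 84 were called higher and 65 lower.

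Complex II had the highest median of the 4 complexes, 1.28, and all 4 of its genes rose. SDH1 reached 137 CPM, above both wild-type glucose libraries (1.51 ± 0.09, adjusted p = 1.85e-26, edgeR), and SDH3 reached 95.6 CPM (0.77 ± 0.09). NDI1 rose by 1.18 ± 0.09. In the bc1 complex 7 of 9 rose (median 0.93). CYT1 rose the most, to 206 CPM (1.36 ± 0.09), so the gene that fell without CYC8 in glucose was here the largest rise of its complex. QCR2, for the second core protein, reached 332 CPM (1.24 ± 0.10). The small subunit genes QCR8 (0.13 ± 0.12) and QCR9 (-0.10 ± 0.14) were not called. In cytochrome oxidase (median 0.39) COX6 (1.02 ± 0.10) and COX4 (0.95 ± 0.09) rose the most, and COX12 (0.23 ± 0.11) and COX7 (-0.21 ± 0.15) were not called.

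In the ATP synthase 9 of 12 rose, with a median of 0.47. ATP1, for the alpha subunit, went from 503 and 456 to 1060.3 CPM (1.15 ± 0.10). ATP5, for the subunit that joins the stalk to F1 and confers oligomycin sensitivity, rose by as much (1.15 ± 0.09, to 201 CPM from 87.6 and 93.9). ATP15 (-0.07 ± 0.12), ATP17 (0.16 ± 0.10) and ATP20 (0.24 ± 0.12), all for small subunits, were not called. The calls for QCR10 and ATP18 were lost with DESeq2, with upper-quartile factors and without either wild-type glucose replicate, and those for COX8, COX9 and ATP16 without replicate 1.

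Across the 33 genes the change in mannose in wild type followed coding length (Spearman's rho 0.80) and GC content (rho 0.72), a description over genes of the same libraries. Over 5828 nuclear open reading frames rho was -0.07 with length and 0.42 with GC content. The 14 members of up to 400 bp had a median of 0.25 and 7 rises, and the 8 members of at least 900 bp had a median of 1.16 and 8 rises. With smooth trends on GC content and coding length removed, the median of the 33 was 0.69, 30 rose, and rho with length was still 0.73. QCR8, COX12, ATP17 and ATP20 (0.73) were then called higher, and QCR9, COX7 and ATP15 still were not. The part of library preparation or RNA quality in the length relation was not tested.

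**Figure D3:**
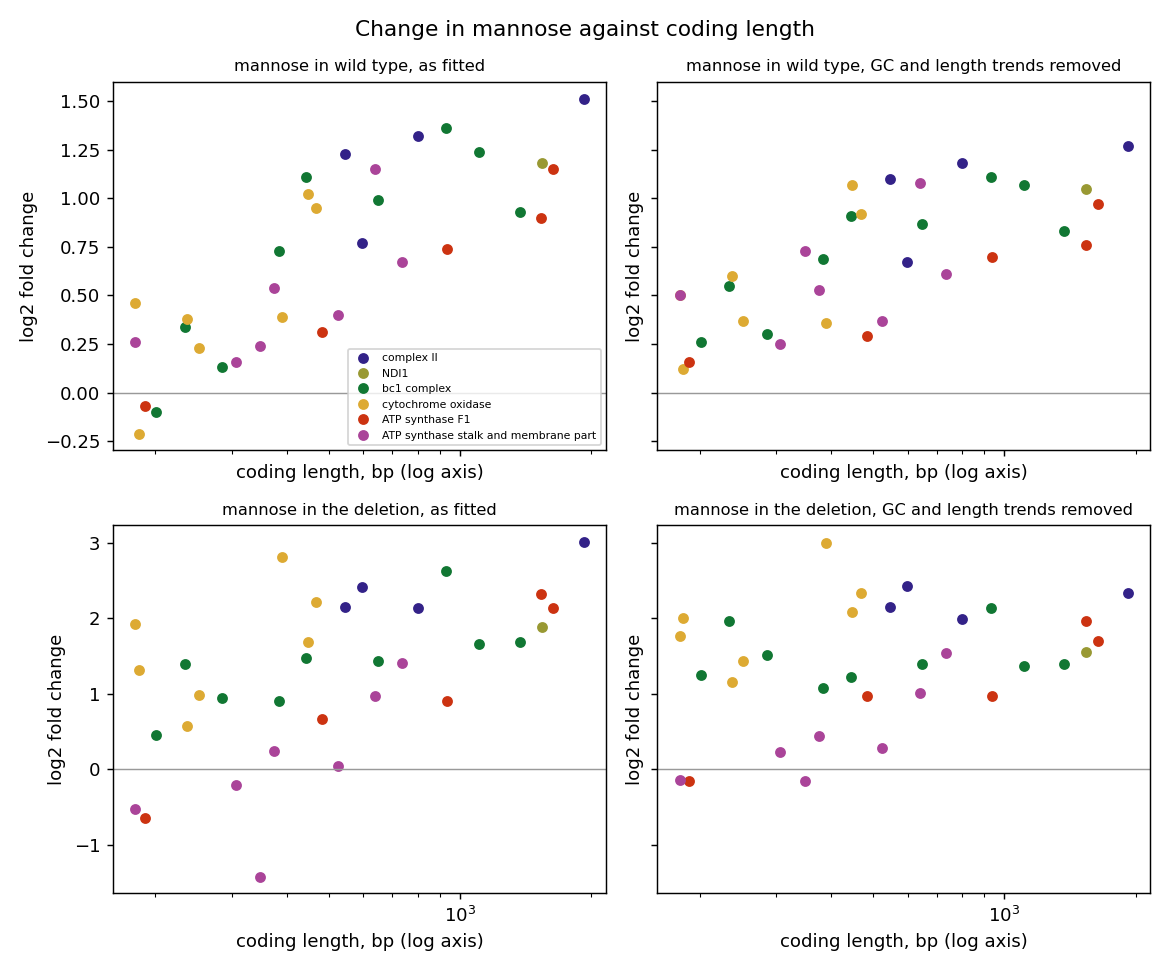
Log2 fold change in mannose against coding length in bp (log axis) for the 33 genes, coloured by complex, in wild type (top) and the deletion (bottom), as fitted (left) and with GC content and coding length trends removed (right). In wild type the long genes changed more in both panels (Spearman's rho 0.80 and 0.73), and in the deletion rho went from 0.57 to 0.29.

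The third comparison asks what mannose did in the cyc8 deletion, 1 library against 2. The members spanned -1.42 to 3.01, and the medians of the complexes lay far apart. Of the 33 genes 28 rose and 3 fell, where 37.6% of all open reading frames were called higher and 39.7% lower. Rises of at least 2-fold were called for 19 of the 33 and for 1148 of all 6146 open reading frames. The median of the 33 was 1.41 and that of all open reading frames -0.04. All genes of complex II (median 2.29), of the bc1 complex (1.43) and of cytochrome oxidase (1.68) rose, as did NDI1 (1.89 ± 0.09, to 273 CPM). In the ATP synthase 7 of 12 rose and 3 fell (median 0.46).

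SDH1 reached 858 CPM, from 99.9 and 113 in the deletion in glucose (3.01 ± 0.09, adjusted p = 1.42e-50, edgeR). SDH3, which had changed little with genotype in glucose, reached 348 CPM (2.42 ± 0.09). With trends on GC content and length removed SDH1 stood at 2.34, below SDH3 at 2.43. In the bc1 complex CYT1 again rose the most, to 370.5 CPM (2.63 ± 0.09), and QCR9 the least, to 19.9 CPM (0.45 ± 0.13). QCR9 was not called with upper-quartile factors and stood at 1.25 with the trends removed, where QCR7 (1.08) was the lowest of the complex. COX13 (YGL191W, chromosome VII, 144808 to 145197, plus strand), for a nonessential peripheral subunit of the oxidase, stood at 45.8 and 48.5 CPM in wild type in glucose, 61.9 CPM in wild type in mannose, 83.8 and 72.8 CPM in the deletion in glucose and 549 CPM in the deletion in mannose. That last library lies far above the other 5, and the change was 2.81 ± 0.09 (adjusted p = 5.36e-49, edgeR). COX4 (2.21 ± 0.09) followed, and COX8 changed the least (0.58 ± 0.10, and 1.15 with the trends removed).

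The ATP synthase subunits moved apart. ATP2 reached 6491 CPM (2.32 ± 0.10) and ATP1 3517 CPM (2.13 ± 0.10), and in the stalk ATP4, for the long b subunit, reached 327 CPM (1.41 ± 0.09). ATP14 stood at 0.24 ± 0.09, a call lost with DESeq2 and without deletion glucose replicate 1 (0.15), and at -0.02 with upper-quartile factors. ATP7 (0.04 ± 0.09) and ATP17 (-0.21 ± 0.10) were not called, but ATP17 was called lower with upper-quartile factors (-0.46) and without deletion glucose replicate 1 (-0.24) or 2 (-0.30), and ATP7 was called lower with upper-quartile factors (-0.22). With GC content and length trends removed, ATP7 (0.28) and ATP17 (0.23) were called higher instead. ATP20 (YPR020W, chromosome XVI, 599870 to 600217, plus strand), for a subunit at the dimer interface, stood at 18.6 and 19.1 CPM in wild type in glucose, 22.3 CPM in wild type in mannose, 21.3 and 25.0 CPM in the deletion in glucose and 8.67 CPM in the deletion in mannose. It fell by 1.42 on the log2 scale (SE 0.15, adjusted p = 6.01e-15, edgeR). ATP15 (-0.64 ± 0.13, to 16.7 CPM) and ATP18, for a small membrane subunit (-0.53 ± 0.11, to 24.7 CPM), fell as well.

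These 3 falls were not called once the trends of each library on GC content and length were removed. ATP20 has the lowest GC content of the members (34.8%, range 34.8% to 47.8%), and ATP15 and ATP18 are 189 and 180 bp long. Nuclear open reading frames of up to 400 bp had a median of -0.51 in this comparison, with 143 called higher and 264 lower of 543. With the trends removed ATP20, ATP15 and ATP18 stood at -0.16, -0.15 and -0.14 (adjusted p = 0.298, 0.261 and 0.227, edgeR), no member fell and 30 rose. All 20 genes of complex II, the bc1 complex and the oxidase still rose, and the medians were 2.24, 1.39, 2.00 and, for the ATP synthase, 0.71. The stalk and membrane part stood at 0.28 and the F1 part at 0.97. ATP7 (0.28) and ATP17 (0.23) were then called higher. The part of library preparation in these trends was not tested.

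**Figure D4:**
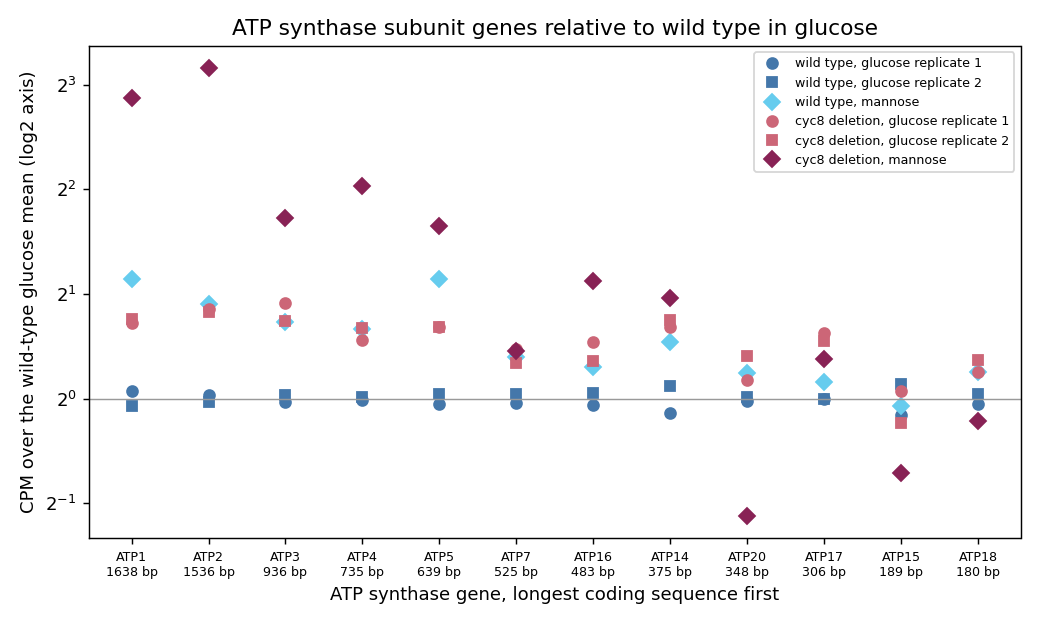
CPM of the 12 ATP synthase genes relative to the mean of the wild-type glucose libraries (log2 axis), longest coding sequence on the left. In the deletion in mannose ATP1 and ATP2 lie highest and ATP20, ATP15 and ATP18 below 1.

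The fourth comparison sets the deletion against wild type in mannose, 1 library against 1, and shares its libraries with the comparisons above, so its values are not independent of theirs. Of the 33 genes 28 were higher and 3 lower in the deletion, beside 38.3% and 41.1% of all open reading frames. The medians were 1.92 in complex II, 1.87 in cytochrome oxidase, 1.04 in the bc1 complex and 0.46 in the ATP synthase. COX13 (3.15 ± 0.11), SDH1 (2.65 ± 0.11) and ATP2 (2.25 ± 0.12) were the highest of their complexes, and in the bc1 complex QCR10 (1.85 ± 0.15). With the trends removed SDH4 (2.23) lay above SDH1 (2.16). CYT1, lower in the deletion in glucose, was higher in mannose (0.85 ± 0.10). ATP20 (-1.36 ± 0.16), ATP15 (-0.64 ± 0.15) and ATP18 (-0.47 ± 0.13) were lower. With the same correction they stood at -0.34, -0.32 and -0.26 and were still called (adjusted p = 0.0431, 0.0271 and 0.0411, edgeR), and ATP7 (0.45) and ATP17 (0.69) became called higher.

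Whether mannose acted differently in the 2 strains was tested by the interaction, the log2 change in mannose in the deletion minus that in wild type. It was above 0 for 23 of the 33 genes and below 0 for 6, where 29.7% and 34.4% of all open reading frames were called so. All 4 complex II genes had a larger change in the deletion, SDH3 (1.65 ± 0.13) and SDH1 (1.5 ± 0.13) the most. In cytochrome oxidase 6 of 7 did, COX13 (2.42 ± 0.13) and COX7 (1.53 ± 0.20) the most, and in the bc1 complex 8 of 9, CYT1 (1.27 ± 0.13) and QCR10 (1.06 ± 0.19) the most. With the trends removed QCR10 (1.42) and QCR8 (1.21) lay above CYT1 (1.03). In the ATP synthase 4 genes did (ATP2 by 1.41 ± 0.15, ATP1 by 0.99 ± 0.14, ATP4 by 0.74 ± 0.13 and ATP16 by 0.37 ± 0.13), and 6 had a smaller one, ATP20 (-1.66 ± 0.19) and ATP18 (-0.78 ± 0.15) the most. QCR7, COX8, ATP3 and ATP5 were not called. With the trends removed QCR7 (0.39), COX8 (0.55) and ATP3 (0.27) became called above 0 (adjusted p = 0.00279, 2.25e-04 and 0.0390, edgeR), and with upper-quartile factors ATP5 below 0 (-0.42, adjusted p = 0.00195). The 6 smaller ones numbered 7 with upper-quartile factors, 3 with DESeq2, 1 at a BCV of 0.2, 2 without wild-type glucose replicate 1 and 2 with the trends removed, where ATP20 (-0.89) and ATP18 (-0.64) were called and ATP15 (-0.31), ATP7 (-0.09), ATP14 (-0.09) and ATP17 (-0.01) were not. Among the larger ones, ATP16 was not called with DESeq2, upper-quartile factors or without wild-type glucose replicate 2 or deletion glucose replicate 2 (0.23), and QCR2 (0.43 ± 0.14) not without deletion glucose replicate 1 (0.19). The 23 larger ones numbered 18 with upper-quartile factors and 20 with DESeq2, so ATP16 was not the only call lost under either. They numbered 18 to 26 under all alternatives except a BCV of 0.2, with which 6 were called. With that BCV, 554 of all open reading frames were called above 0 and 264 below 0.

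Of 13 other subunit and electron carrier genes of the same pathway, 12 rose in the deletion in glucose and none fell (median 1.62), beside 30.1% and 37.8% of all open reading frames. With mannose in wild type 12 rose and none fell, beside 20.5% and 16.9%. Isoforms of the same subunit differed in their changes. The cytochrome c gene CYC7, known as the hypoxic isoform, went from 1.09 and 1.02 CPM in wild type to 26.4 and 22.5 CPM in the deletion in glucose (4.53 ± 0.14), and CYC1, the main aerobic isoform, from 24.1 and 28.4 to 23.8 and 26.9 CPM (-0.05 ± 0.09, not called). COX5B, the hypoxic isoform of oxidase subunit 5, rose by 1.85 ± 0.09 and COX5A by 0.27 ± 0.08, not called without wild-type glucose replicate 1 and at 0.42 without deletion glucose replicate 1. NDE2, for an external NADH dehydrogenase, rose by 4.65 ± 0.13 and its paralog NDE1 by 0.20 ± 0.08, a call lost with upper-quartile factors and without wild-type glucose replicate 2 (both 0.13). The increase of GUT2, for the mitochondrial glycerol phosphate dehydrogenase, was 1.93 ± 0.08. COX26, for a small oxidase subunit, went from 0.319 and 0.356 CPM to 8.13 and 8.43 CPM (4.60 ± 0.21) and reached 53.9 CPM in the deletion in mannose. CYB2, for the L-lactate dehydrogenase that feeds cytochrome c, rose by 2.70 ± 0.11 in the deletion in glucose, and MCR1, for a mitochondrial NADH-cytochrome b5 reductase, by 1.62 ± 0.08. DLD1, for a D-lactate dehydrogenase, rose by 0.24 ± 0.08, a call lost without wild-type glucose replicate 1 (0.21) and at a BCV of 0.2. With mannose in the deletion COX5A rose by 2.01 ± 0.09 while COX5B fell (-0.29 ± 0.11), a call lost with DESeq2 and with the trends removed (-0.13), and at -0.44 without deletion glucose replicate 2. The ATP synthase genes outside the 33 differed there too, TIM11 rising by 1.51 ± 0.12 and ATP19 falling (-1.30 ± 0.14). These values are as fitted, without trends removed. TIM11 and ATP19 are 291 and 207 bp long, and nuclear open reading frames of up to 400 bp had a median of -0.51 with mannose in the deletion.

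SDH9, the paralog of SDH1, stood at 1.22 and 1.56 CPM in wild type in glucose, 1.63 CPM in wild type in mannose, 8.74 and 9.92 CPM in the deletion in glucose and 168 CPM in the deletion in mannose, where its counts were 19.6% of those of SDH1, against 1.19% in wild type in mannose. Mannose in the deletion raised it by 4.17 ± 0.11, and in wild type it was not called (0.22 ± 0.24). SHH3, the paralog of SDH3, stood at 0.106 and 0.111 CPM (4 and 5 counts) in wild type in glucose, 0.181 CPM in wild type in mannose, 1.28 and 0.848 CPM in the deletion in glucose and 4.97 CPM in the deletion in mannose. It was low in every library but rose by 3.22 ± 0.47 in the deletion in glucose and by 2.25 ± 0.30 with mannose in the deletion. SHH4, the paralog of SDH4, was not called by genotype in glucose (-0.30 ± 0.19; -0.55 and called without wild-type glucose replicate 2) and rose by 0.98 ± 0.23 with mannose in the deletion. The genes for inhibitors of the ATP synthase and their stabilising factors all rose in the deletion in glucose, INH1 by 2.21 ± 0.09, STF1 by 2.07 ± 0.10 and STF2 by 1.47 ± 0.09, each more than any of the 12 subunit genes in log2 change. With mannose in wild type they rose too (INH1 by 1.76 ± 0.10).

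Of 8 regulator genes 4 rose in the deletion in glucose and none fell, beside 30.1% and 37.8% of all open reading frames. HAP4 stood at 42.6 and 41.6 CPM in wild type in glucose, 113 CPM in wild type in mannose, 139 and 139.8 CPM in the deletion in glucose and 742 CPM in the deletion in mannose. Its groups did not overlap, with changes of 1.73 ± 0.08 by genotype in glucose, 1.42 ± 0.09 with mannose in wild type and 2.41 ± 0.09 with mannose in the deletion. HAP1 was not called in glucose (-0.11 ± 0.08; -0.19 and called with upper-quartile factors), and ROX1, for a repressor of hypoxic genes, rose there by 1.92 ± 0.08. MIG1 and MIG2, for repressors of glucose-repressed genes, rose there by 1.40 ± 0.08 and 1.43 ± 0.08. Of 34 assembly factor genes 8 rose and 8 fell in the deletion in glucose (23.5% each way, below the 30.1% and 37.8% of all open reading frames, median 0.04), CYC3, for the enzyme that attaches heme to cytochrome c, the most (2.43 ± 0.09). With mannose in wild type 21 rose and none fell (61.8% higher, beside 20.5% of all, median 0.42), and with mannose in the deletion 18 rose and 10 fell (52.9% and 29.4%, beside 37.6% and 39.7% of all), COX19 by 2.23 ± 0.13 and CBP6 at -1.20 ± 0.25 (-0.03 with the trends removed).

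The subunits made inside mitochondria did not move with the 33 in wild type. With mannose 5 of the 6 mitochondrially encoded genes tested fell there, COX1 from 818 and 697 to 297 CPM (-1.35 ± 0.11) and COB from 326 and 259 to 36.1 CPM (-3.02 ± 0.12), and none rose, beside 16.9% lower and 20.5% higher of all open reading frames. COX3 (-1.46 ± 0.10) and OLI1 (-1.53 ± 0.11) were among them. COX2 (-0.24 ± 0.11) was not called, but was called lower without wild-type glucose replicate 2 (-0.43) or either deletion glucose replicate (both -0.25). In the deletion 5 rose with mannose and 1 fell, beside 37.6% and 39.7%. COX1 rose to 4097 CPM (1.78 ± 0.10), COX2 by 2.37 ± 0.11 and COX3 by 1.62 ± 0.09, and ATP6 (1.33 ± 0.15) was not called with DESeq2 (adjusted p = 0.0992). OLI1 fell (-0.22 ± 0.10, adjusted p = 0.0405, edgeR), a call lost with DESeq2, without either wild-type glucose replicate, without deletion glucose replicate 2 (-0.12) and at a BCV of 0.2. The interaction was called above 0 for all 6, beside 29.7%, and OLI1 (1.31 ± 0.14) was not called at a BCV of 0.2. ATP6 stood at 40.1 and 16.4 CPM in the deletion glucose libraries and 69.9 CPM in the deletion in mannose. The gap between those replicates is wide beside its SE, which rests mostly on spread shared over genes (86.7 prior and 2 residual degrees of freedom). The alternative with GC content and length trends removed covered nuclear open reading frames only. The part of these trends in the changes of the mitochondrially encoded genes was therefore not tested.

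**Figure D5:**
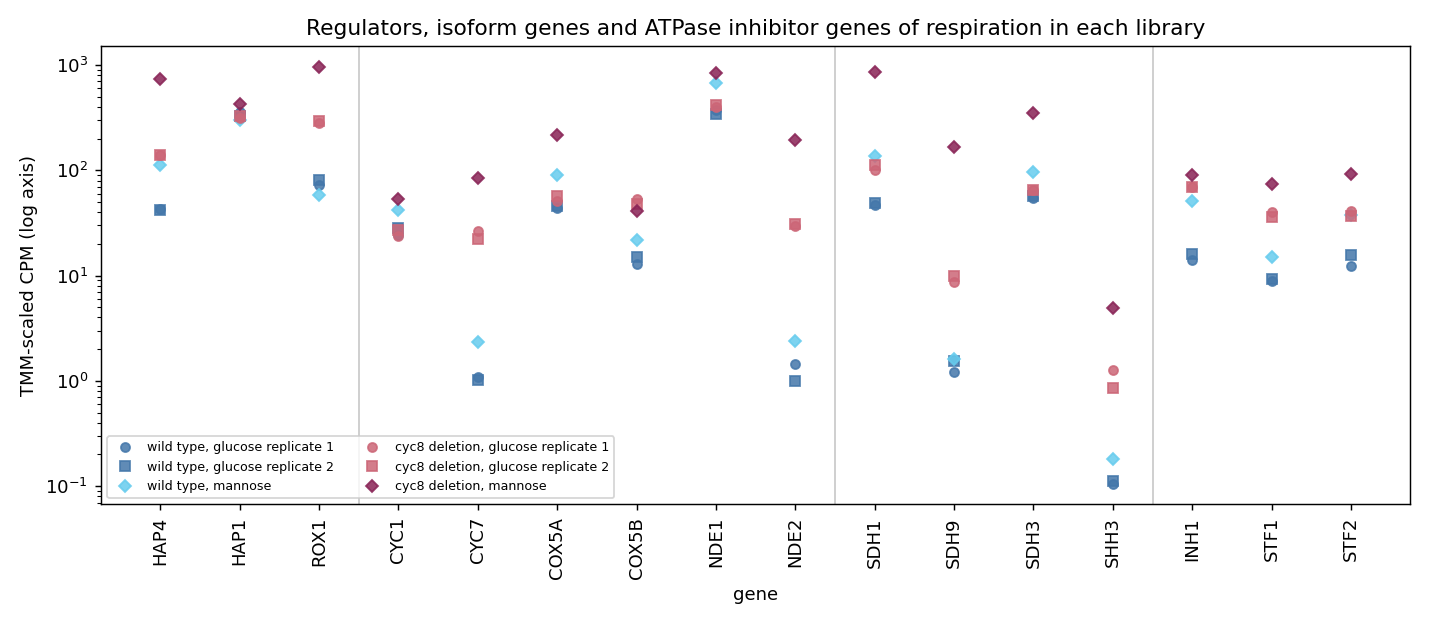
TMM-scaled CPM (log axis) in each library of HAP4, HAP1 and ROX1, of isoform pairs of cytochrome c, oxidase subunit 5 and external NADH dehydrogenase, of complex II genes with their paralogs, and of the ATPase inhibitor genes. HAP4 and SDH9 reach 742 and 168 CPM in the deletion in mannose, while HAP1 stays between 299 and 423 CPM.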

How the data were processed

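The deposited files give raw counts per open reading frame and a length column, which for 5969 of 6007 reading frames of the reference equals the codon number minus 10. The length column was not used for any result. The authors' tools included TopHat2 2.0.9, CASAVA 1.8 and Bowtie2 2.3.4.2, with sacCer3 as the genome, per the submitters' processing notes. The counter, its strand setting and its handling of shared reads were not given in the sources used here. A further 689 reading frames have no coding sequence in the reference, so unannotated antisense overlap was not checked.

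Counts were fitted with edgeR 4.0.16 (R 4.3.3) on all 6 libraries with 1 mean per group, after filterByExpr (6146 tested, 550 left out) and TMM scaling, and tested by quasi-likelihood F tests with Benjamini-Hochberg adjustment. The fit has 2 residual and 86.7 prior degrees of freedom and a common BCV of 5.54%. SE was taken as the absolute log2 change divided by the root of F. DESeq2 1.42.0 was an alternative, and BLAST 2.17.0 gave paralogs. The GC and length alternative used smooth (lowess) trends of each library as offsets. Levels per length use coding length of the reference. Counting error sets a floor of 3 counts, or 0.0667 to 0.132 CPM. The rule for names allowed all 33 members, any gene of another list of up to 13, and the 2 largest rises and falls among assembly factors. The design assumed a table of promoters, for which upstream windows of the R64 genome were used instead. The set of members, though defined by complex and not by a measured value, and the lists, tests and window of 500 bases were chosen with earlier results of these data known. The numbers of glucose replicates do not pair the samples by the labels, and the deviations of same-numbered libraries had a correlation of -0.05 across genes.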

Additional observations from a re-analysis of the deposited data

Results flagged for a closer look

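For 56 of the genes named, the change with mannose differed between the deletion and wild type by the interaction test (edgeR, adjusted p under 0.05), 1 deletion and 1 wild-type mannose library against the glucose pairs. Of all open reading frames tested, 29.7% were called above 0 and 34.4% below 0 by the same test. All values here are the log2 change in the deletion minus that in wild type, and their causes were not tested.

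In the respiratory chain the values were 1.5 for SDH1, 0.81 for SDH2, 1.65 for SDH3, 0.92 for SDH4 and 0.71 for NDI1. In the bc1 complex they were 0.75 for COR1, 0.43 for QCR2, 0.37 for QCR6, 0.82 for QCR8, 0.54 for QCR9, 1.06 for QCR10, 0.44 for RIP1 and 1.27 for CYT1. In cytochrome oxidase they were 1.27 for COX4, 0.66 for COX6, 1.53 for COX7, 1.45 for COX9, 0.75 for COX12 and 2.42 for COX13. In the ATP synthase they were above 0 for ATP1 (0.99), ATP2 (1.41), ATP4 (0.74) and ATP16 (0.37) and below 0 for ATP7 (-0.36), ATP14 (-0.30), ATP15 (-0.56), ATP17 (-0.36), ATP18 (-0.78) and ATP20 (-1.66). With GC and length trends removed ATP18 (-0.64) and ATP20 (-0.89) were still called, and ATP7, ATP14, ATP15 and ATP17 were not. Of the 33 genes, 23 were called above 0 as fitted, 20 with DESeq2 and 18 with upper-quartile factors.

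Outside the 33 genes, values above 0 were 3.95 for SDH9, 2.06 for GUT2, 1.68 for NDE2, 1.65 for DLD1, 1.10 for CYB2, 1.03 for MCR1, 0.91 for SHH4, 1.00 for COX5A, 0.66 for CYC7, 0.66 for TIM11, 0.38 for CYC1, 2.11 for ROX1, 0.99 for HAP4, 0.61 for HAP1, 1.53 for COX19 and 0.69 for CYC3. The mitochondrially encoded ATP6, COB, COX1, COX3, COX2 and OLI1 stood at 6.34, 3.88, 3.13, 3.08, 2.60 and 1.31. ATP6 had 84 counts in wild type in mannose, and its deletion glucose replicates lay apart, at 40.1 and 16.4 CPM. Values below 0 were -1.37 for INH1, -1.37 for COX11, -1.10 for ATP19, -1.0 for CBP6 and -0.92 for COX5B. All values outside the 33 genes are as fitted, without GC or length trends removed.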

How the results depend on the processing

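Of 1551 member results under alternatives 1400 kept their side of the threshold, 130 lost their call and 17 gained one. A further 4 changed sign with a call in at least 1 of the fits compared. Changes of sign between uncalled results are counted among the 1400. Upper-quartile factors moved the median of all open reading frames by more than 0.1 in the comparisons with the deletion in mannose (to -0.30, -0.39 and -0.32). Such a factor shifts all genes alike, so the members' median relative to it (1.45, 1.26 and 0.79) is the same by construction. The share of higher calls among all calls was then 37.4%, 37.1% and 33%, and with TMM 48.6%, 48.2% and 46.3%. Under these factors ATP7 stood at -0.22 with mannose in the deletion and -0.28 for genotype in mannose, ATP14 at -0.02 with mannose in the deletion and NDE1 at -0.02 for genotype in mannose, and 5 members fell with mannose in the deletion. With GC and length trends removed 0 members fell there, ATP17 stood at 0.23 and HAP1 at -0.12, HAP1 stood at -0.02 for genotype in mannose, and 2 members had a negative interaction. That last count was 6 with TMM, 7 with upper-quartile factors, 3 with DESeq2, 1 with a fixed BCV of 0.2 and 2 to 6 without each replicate. With the fixed BCV members rose in 11, 8 and 6 cases (genotype in glucose, mannose in wild type, interaction), 0 fell in the first and 1 in each comparison of the deletion in mannose, and 1491, 149, 2496, 2820 and 818 of all open reading frames were called over the 5 comparisons. For mannose in wild type DESeq2 called 1519 and leaving out single replicates gave 1516 to 2734. The values for all alternatives rest on 1 library per mannose group, and at 8.67 CPM ATP20 held 197 counts there. In the 4 glucose libraries alone, 31 members rose and 1 fell with and without the replicate block, and 3921 and 4079 of all open reading frames were called.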
